A study of Schizosaccharomyces pombe with 4 samples.

Results

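Internal introns, those that lie between the first and the last intron of a gene, were examined in fission yeast (Schizosaccharomyces pombe) with and without the debranching enzyme Dbr1. A gene counted as a host when it was nuclear, protein-coding and annotated with 3 or more introns, and its internal introns were kept when they measured at least 43 and under 200 bases and held no small nucleolar RNA. Of 1438 internal introns in 709 such genes, 287 were shorter than 43 bases and 43 measured 200 bases or more, and none of the others held a small nucleolar RNA. This left 1108 introns in 645 hosts, out of 5361 introns and 12383 loci in the authors' table.

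The mutant was dbr1Δ, a single strain of the Bioneer deletion collection that grew slowly in YES, and the wild type was strain ED668. Both strains were h+ and carried ade6-M216, ura4-D18 and leu1-32. Of each strain there were 2 cultures, grown in the rich medium YES at 32 °C to an OD600 of 0.4, and total RNA depleted of rRNA went into strand-specific libraries with 49-base reads. Total counts were 24205354 and 19780858 in dbr1Δ and 25169220 and 36062720 in wild type. The transcript of dbr1 fell to 207 and 164 counts in dbr1Δ, against 1535 and 1799 counts in wild type (log2 fold change -2.77, adjusted p = 3.80e-07, edgeR), and ura4 had at most 1 count in any library. Among mating-type markers, the P-cell gene map2 had 98 and 70 counts in dbr1Δ against 137 and 139 in wild type. The M-cell gene mam2 had 287 and 237 counts in dbr1Δ against 54 and 73 in wild type (log2 fold change 2.47). Of the other markers, the P-cell gene map3 was lower in dbr1Δ (log2 fold change -0.80, adjusted p = 0.000982, edgeR), the M-cell genes mfm2 and mfm3 were not called (0.12 and 0.23), and mfm1 had at most 16 counts. The part of these markers in the results on introns was not tested.

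During splicing, an adenosine near the 3′ end of the intron attacks the 5′ splice site, and the intron is released as a loop with a tail, the lariat. Dbr1 opens the bond that closes the loop, after which the intron is degraded. In fission yeast introns are short, many genes hold several of them, and the spliceosome removes each one separately. The count of an intron here adds up the reads the table gives for it and those that cross its 5′ boundary with the exon. Levels are CPM, counts divided by library size after TMM scaling.

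The introns that the results turn on are printed below, from the RefSeq genome (assembly ASM294v3) at the coordinates given by the authors, so that their splice site and branch site letters can be read beside their values. Capitals mark the first 6 bases, the branch site letters nearest the 3′ end where any were found, and the last 2 bases. The introns of cdc15 (chrI:1402465-1402655, minus strand), osh6 (chrIII:1266544-1266670, minus strand), mpc1 (chrIII:200460-200642, plus strand) and vps4 (chrI:818319-818428, plus strand) stand for the largest increases.
cdc15, intron 2 of 3: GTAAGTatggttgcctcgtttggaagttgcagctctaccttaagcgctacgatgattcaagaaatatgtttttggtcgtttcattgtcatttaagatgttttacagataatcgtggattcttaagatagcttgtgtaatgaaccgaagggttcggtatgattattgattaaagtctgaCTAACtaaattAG
osh6, intron 2 of 4: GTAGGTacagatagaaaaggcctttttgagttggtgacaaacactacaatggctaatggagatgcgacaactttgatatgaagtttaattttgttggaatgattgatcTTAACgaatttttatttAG
mpc1, intron 3 of 5: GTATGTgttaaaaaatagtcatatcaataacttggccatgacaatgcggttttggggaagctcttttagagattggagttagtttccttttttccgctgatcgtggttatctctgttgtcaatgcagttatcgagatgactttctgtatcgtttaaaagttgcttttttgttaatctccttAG
vps4, intron 2 of 3: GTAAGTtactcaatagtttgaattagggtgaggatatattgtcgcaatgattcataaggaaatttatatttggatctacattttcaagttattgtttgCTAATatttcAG
The introns of alp41 (chrI:697569-697620, plus strand), rmt1 (chrI:5016597-5016648, minus strand) and erh1 (chrI:4066653-4066727, minus strand) stand for the largest falls of splicing efficiency.
alp41, intron 3 of 6: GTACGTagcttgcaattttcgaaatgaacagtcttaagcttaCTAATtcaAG
rmt1, intron 6 of 8: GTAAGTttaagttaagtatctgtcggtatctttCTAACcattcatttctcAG
erh1, intron 3 of 5: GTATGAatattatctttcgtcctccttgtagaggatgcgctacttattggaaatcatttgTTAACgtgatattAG
The introns of spt20 (chrI:5369783-5369973, minus strand) and rps13 (chrI:2746240-2746302, minus strand) held the most wild-type counts. Intron numbers here follow the coordinates in the direction of transcription, so they run from high to low on the minus strand. The authors' exon label instead places the spt20 intron between exons 1 and 2.
spt20, intron 3 of 4: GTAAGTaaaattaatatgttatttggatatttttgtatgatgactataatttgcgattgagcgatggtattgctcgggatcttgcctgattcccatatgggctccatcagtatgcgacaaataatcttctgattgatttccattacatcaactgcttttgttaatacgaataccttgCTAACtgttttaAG
rps13, intron 2 of 3: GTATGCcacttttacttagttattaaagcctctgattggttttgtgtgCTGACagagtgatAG
A pair from the gene clr6 (chrII:850709-850798 and chrII:851170-851214, both minus strand) shows a longer and a shorter intron of the same transcript.
clr6, intron 6 of 13: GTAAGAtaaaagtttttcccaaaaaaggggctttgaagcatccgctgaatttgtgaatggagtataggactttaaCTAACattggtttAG
clr6, intron 2 of 13: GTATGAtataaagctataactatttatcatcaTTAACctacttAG

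In their letters the internal introns were close to all nuclear introns of protein-coding genes. Of the 1108 members, 1106 opened with GT and closed with AG, and 1101 lay at intron coordinates of the RefSeq annotation. The exceptions to GT and AG were introns of alp21, a tubulin folding cofactor, and of cca1. The median width was 55 bases and the median GC content 29.0%, against 29.0% over all such introns. The commonest first 6 bases were GTAAGT, in 252 members (22.7%) against 27.4% of 5297 introns of at least 30 bases, and GTATGT, in 203 members (18.3%) against 19.6%. The branch site letters CTAAC and CTAAT, as well as CTGAC and TTAAC and finally TTGAC, were searched on the intron's own strand in its last 50 bases, and the match nearest the 3′ end was taken where several occurred or overlapped. At least 1 of these 5 was found in 987 members (89.1%), against 90.0% of the 5297 introns. CTAAC alone was found in 459 members (41.4%), against 41.8%. A median of 11 bases followed the A of the match, with quartiles of 9 and 13 bases. The mpc1 intron printed above held none of the 5.

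Internal introns together were about 3 times as abundant in dbr1Δ. Their counts summed to 99388 and 80684 in the dbr1Δ libraries, against 31329 and 47599 in the wild-type libraries. As a share of all counts this was 0.411% and 0.408% in dbr1Δ and 0.124% and 0.132% in wild type, so the groups lay far apart and the cultures of a strain close together. The summed level was 3956.5 and 4090.1 CPM in dbr1Δ against 1264.9 and 1344.2 CPM in wild type, a ratio of 3.08, with 2.94 to 3.23 over the pairs of libraries. An exact permutation test of 2 libraries against 2 cannot give a two-sided p under 0.333, so these sums are given without a test. In RNA from a whole culture, more of an intron in each cell and more cells that hold it cannot be told apart.

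The wild-type sum leaned on few introns. The intron of spt20, which encodes a subunit of the SAGA coactivator complex, alone held 28.0% and 31.6% of the wild-type counts of the 1108 introns. It had 5370 and 4386 counts in dbr1Δ against 8762 and 15027 in wild type, and levels of 213.8 and 222.3 CPM in dbr1Δ against 353.8 and 424.4 CPM in wild type. Both dbr1Δ libraries were thus lower, by -0.84 on the log2 scale (standard error 0.10, adjusted p = 0.000163, edgeR), short of a 2-fold change. Its host transcript had a level of 42.5 and 44.3 CPM in dbr1Δ against 56.5 and 55.4 CPM in wild type. Neither the table nor the RefSeq annotation lists another RNA inside this intron. The rps13 intron, in the gene of a small-subunit ribosomal protein, had 7794 and 5229 counts in dbr1Δ against 6957 and 9592 in wild type, with levels of 310.3 and 265.1 CPM in dbr1Δ that overlapped 280.9 and 270.9 CPM in wild type (log2 fold change 0.06, standard error 0.09, adjusted p = 0.582, edgeR). Without the spt20 intron the ratio of sums was 4.16, and without the spt20 and rps13 introns it was 5.50, choices made after the data were seen. With no intron left out, the ratio was 5.43 for first, 4.97 for last and 7.63 for sole introns of the same width range. Over all nuclear introns of protein-coding genes, of any width, it was 6.57. The differences between these ratios were not tested.

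Without any filter on low counts, 626 of the 1108 introns (56.5%) had both dbr1Δ libraries above both wild-type libraries, where 58.3% of all introns did. In 86 members (7.76%) both dbr1Δ libraries lay below both wild-type libraries, against 7.33% of all introns. Most members were thinly covered: the median count was 13 and 10 in dbr1Δ and 6 and 9 in wild type, 56 members had no count in either wild-type library, and 31 had none in either dbr1Δ library. For the test, an intron needed at least 10 counts in at least 2 libraries, which 627 members met. Of these, 304 were increased and 6 decreased by edgeR's quasi-likelihood test, which asked for a change over 2-fold and a p under 0.05 after Benjamini-Hochberg adjustment over all loci. Over the same fit 21.8% of all loci were increased and 2.32% decreased, and among introns the shares were 53% and 1.32%. The members' share of 48.5% was thus near that of introns at large. Leaving out either wild-type library lowered the decreased count to 1. Over the 627, the log2 fold change had a median of 1.04 and quartiles of 0.31 and 2.48.

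That filter can be met through dbr1Δ counts alone, so the count was repeated among the 384 members with at least 10 counts in both wild-type libraries, a choice made after the data were seen. Of these, 145 (37.8%) were increased and the median change was 0.64 on the log2 scale. Among all introns and all loci that met this filter the increased shares were 44% and 15.0%. Between libraries of a strain, log2 levels of the 627 members had a Pearson's r of 0.97 in dbr1Δ and 0.92 in wild type, and between strains r was 0.44 to 0.52. These are descriptions across introns, which share the libraries and the depth of each gene.

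Width set the members apart from each other. The study's authors expected lariats of long introns to be better recovered for technical reasons, given the lengths of the sequenced fragments and reads. How far recovery entered the values below was not tested. Among the tested members of 43 to 48 bases, shorter than the 49-base reads, 34 of 135 were increased, and the median change was 0.70 on the log2 scale. At 49 to 74 bases the count was 79 of 259, with a median of 0.57, and at 75 to 99 bases it was 55 of 86, with a median of 1.73. From 100 to under 150 bases 94 of 103 tested members were increased, with a median of 3.44, and from 150 bases on 42 of 44, with a median of 4.72. Width and log2 fold change had a Pearson's r of 0.69 and a Spearman's rank correlation of 0.56 over the 627 introns. Among the 384 members with at least 10 counts in both wild-type libraries, a filter that dbr1Δ counts cannot meet, they were 0.72 and 0.54. There 13 of 75 members of 43 to 48 bases were increased (median 0.27), 33 of 175 of 49 to 74 bases (median 0.39), 24 of 49 of 75 to 99 bases (median 0.78), 44 of 52 of 100 to under 150 bases (median 2.53) and 31 of 33 from 150 bases on (median 4.28). At the width limits, 5 of 22 tested introns of 43 bases were increased (median 0.57) and 4 of 19 of 42 bases (median 0.50). Just under the upper limit, 5 of 6 introns of 190 bases or more were increased (median 3.41), and just above it 9 of 9 introns under 210 bases (median 5.12).

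**Figure D1:**
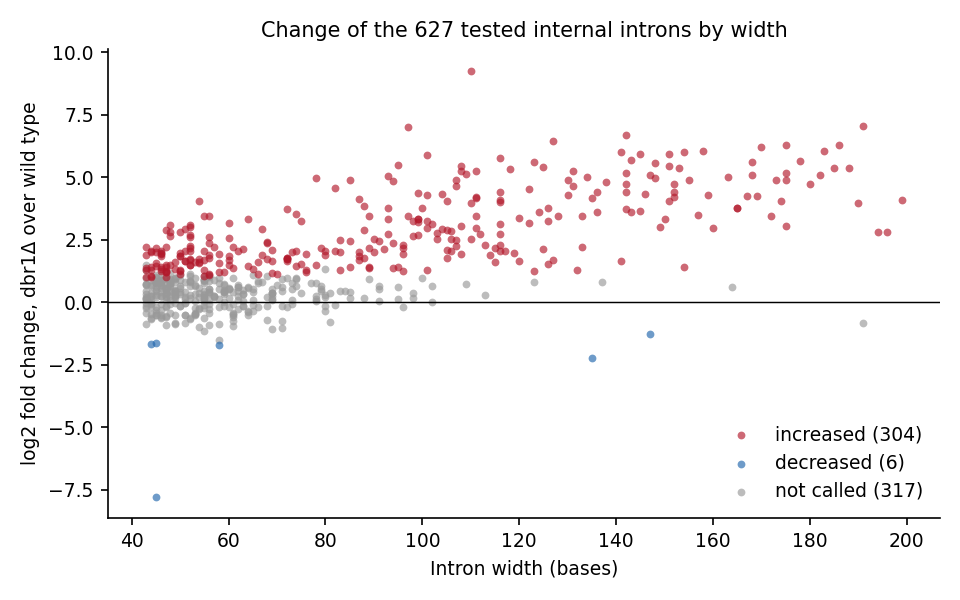
Log2 fold change of the 627 tested internal introns (vertical axis, dbr1Δ over wild type, edgeR) against width in bases. Each point is an intron, red where increased (304), blue where decreased (6) and grey where not called. Above 100 bases nearly every point is red and lies above 1, and under 75 bases the points centre between 0 and 1.

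The same held for the levels themselves, per kb of intron. From 150 bases on the summed level was 234.2 and 244.9 CPM per kb in dbr1Δ against 55.0 and 65.1 in wild type. The spt20 intron supplied most of the wild-type value, since without it the level was 211.9 and 221.8 CPM per kb in dbr1Δ against 9.81 and 10.9 in wild type. From 100 to under 150 bases it was 75.4 and 81.8 in dbr1Δ against 5.43 and 6.13 in wild type. At 43 to 48 bases it was 13.1 and 12.8 in dbr1Δ against 9.01 and 8.94 in wild type. In every bin both dbr1Δ libraries lay above both wild-type libraries. Among the wild-type libraries the level per kb showed no such climb with width once the spt20 and rps13 introns were left out.

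**Figure D2:**
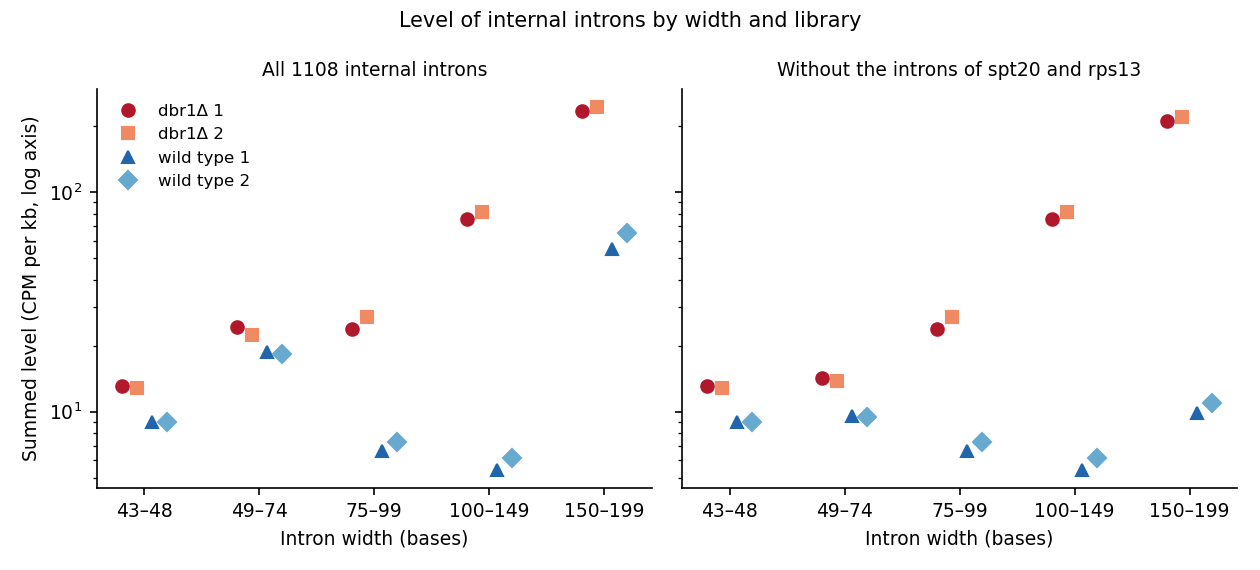
Summed level of internal introns by width bin, in CPM per kb on a log axis. Each point is a library, with dbr1Δ in red shades and wild type in blue shades, for all 1108 introns (left panel) and without the introns of spt20 and rps13 (right panel). In dbr1Δ the points climb from about 13 to over 200 CPM per kb, and without these introns the wild-type points stay between 5 and 11.

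The 10 largest increases fell on introns of 97 to 191 bases in hosts of varied roles. The cdc15 intron, in the gene of an F-BAR protein of the cytokinetic ring, had 2037 and 1745 counts in dbr1Δ against 12 and 26 in wild type. On the log2 scale the intron rose by 7.06 ± 0.15 (standard error, adjusted p = 3.91e-09, edgeR), while the host transcript changed by -0.11 (adjusted p = 0.193). The dbr1Δ libraries agreed closely and stood far above both wild-type libraries.

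The osh6 intron, in the gene of an oxysterol-binding protein that carries lipids, had 5555 and 4076 counts in dbr1Δ against 60 and 87 in wild type (log2 fold change 6.45, standard error 0.10, adjusted p = 1.97e-09, edgeR). The mpc1 intron, in a gene of the mitochondrial pyruvate carrier, had 3935 and 3094 counts in dbr1Δ against 52 and 91 in wild type (log2 fold change 6.05, standard error 0.11, adjusted p = 2.17e-09, edgeR). Per kb, with the host taken over its annotated span including introns, the osh6 intron reached 1486% of its host's level in dbr1Δ and 13.5% in wild type. The mpc1 intron reached 509% in dbr1Δ and 11.0% in wild type. On this scale, which sets the host low, both introns stood above their own transcript in dbr1Δ alone. Their splicing efficiency, described further on, was lower in dbr1Δ by the test on reads and not by the test that takes in the spread between cultures. The intron of cka1, a catalytic subunit of casein kinase, had 1643 and 1247 counts in dbr1Δ against 23 and 35 in wild type, and that of amk2, a regulatory subunit of the AMP-activated kinase, 380 and 355 against 4 and 9. The log2 fold changes were 6.05 for cka1 (standard error 0.12, adjusted p = 3.17e-09, edgeR) and 6.23 for amk2 (standard error 0.25, adjusted p = 1.94e-07, edgeR), again with no overlap between the strains.

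Members with next to no wild-type reads are given as bounds. The intron of vps4, an ATPase of endosomal sorting, had 61 and 69 counts in dbr1Δ and 0 in both wild-type libraries. With 3 counts taken as the most that the pair of wild-type libraries could have missed, this is at least 58.1-fold higher (adjusted p = 4.81e-05, edgeR). The intron of sei1, which encodes seipin of the lipid droplet, had 11 and 16 counts in dbr1Δ and 0 in both wild-type libraries, at least 12.1-fold higher by the same floor (adjusted p = 0.00171, edgeR). The intron of vma13, a subunit of the vacuolar proton pump, had 172 and 161 counts in dbr1Δ against 3 and 1 in wild type, a ratio of 112 with a 95% counting interval of 43.2 to 412. These bounds and intervals cover counting error only.

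The list of 10 was completed by introns of cox8, a subunit of cytochrome c oxidase, and of SPBC17A3.08, annotated as a TatD deoxyribonuclease. The cox8 intron had 331 and 270 counts in dbr1Δ against 2 and 8 in wild type, and that of SPBC17A3.08 had 981 and 634 against 13 and 14. Both had no overlap between strains, and both lie under a protein-coding transcript annotated on the opposite strand. Among other introns named in this report, those of vps4, srp2, alp41, cab4, nit1 and dbr1 lie under a noncoding RNA annotated on the opposite strand. The sources used here do not state that reads were counted by strand. Over all members, 260 lay under an annotated antisense transcript, and 43.6% of those tested were increased, against 239 of 478 tested members without one.

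Decreases were few, and 3 of the 6 lay in hosts that were themselves decreased. The intron of dbr1 itself (int_1547, intron 2 of 4) had 0 counts in both dbr1Δ libraries against 26 and 36 in wild type, at least 15.4-fold lower by the floor of 3 counts, and dbr1 is the deleted gene. Of SPBC1348.12, annotated as a transcription factor, both internal introns were decreased. Its intron 2 had 9 and 2 counts in dbr1Δ against 26 and 44 in wild type (log2 fold change -2.22, standard error 0.47, adjusted p = 0.00418, edgeR), and the host changed by -1.13 (adjusted p = 0.000565, edgeR). Its intron 3 had 5 and 6 counts in dbr1Δ against 21 and 26 in wild type, and that call was lost without dbr1Δ library 1. None of the introns of dbr1, SPBC1348.12, rsa4 and rad16 decreased here reached 10 counts in a dbr1Δ library, so without either wild-type library they fell under the filter and 1 decreased member was left.

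The other decreased members were introns of rsa4, a ribosome biogenesis factor, rad16, a subunit of a DNA repair endonuclease, and SPCC1884.01, of unknown function. The rsa4 intron had 3 and 3 counts in dbr1Δ against 10 and 17 in wild type (log2 fold change -1.70, adjusted p = 0.0251, edgeR), and the rad16 intron 5 and 6 against 10 and 38 (log2 fold change -1.64, adjusted p = 0.0441, edgeR). These counts are small, and both calls were lost when either dbr1Δ library was left out. The intron of SPCC1884.01 (int_4362), the smallest of the decreases and named after its values were seen, had 16 and 10 counts in dbr1Δ against 36 and 48 in wild type (log2 fold change -1.27, adjusted p = 0.00787, edgeR).

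Among the most abundant members that were not called were the spt20 and rps13 introns and those of ypt1, nxt2 and SPBC3E7.07c. The intron of ypt1, a Rab GTPase of early secretory traffic, had 351 and 215 counts in dbr1Δ against 583 and 740 in wild type (log2 fold change -0.83, standard error 0.14, adjusted p = 0.00138, edgeR), lower in both dbr1Δ libraries but within 2-fold. That of nxt2, a nuclear transport factor, had 345 and 230 counts in dbr1Δ against 231 and 358 in wild type (log2 fold change 0.39, standard error 0.14, adjusted p = 0.0395, edgeR). Scaled to library size this was higher in both dbr1Δ libraries, again within 2-fold. The intron of SPBC3E7.07c had 240 and 133 counts in dbr1Δ against 232 and 345 in wild type, with overlapping levels. These introns measured 51 to 191 bases, and apart from that of spt20 they were under 75 bases.

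The change of an intron was set beside that of its host. The hosts of the 627 tested members had a median log2 fold change of -0.27, and the intron lay above its host in 579 cases. Over all 627, the median difference of intron minus host was 1.29. Members that met the filter through dbr1Δ counts alone are among the 627. That limit also holds for the divisions by introns of the same host, rank, position, letters and host list below. None of these is given with the wild-type filter. Of the 304 increased members, 298 had a host that was called in neither direction, 3 an increased host and 3 a decreased host. Of the 435 hosts concerned, 3 were increased and 10 decreased (0.690% and 2.30%), against 6.69% and 2.81% of all transcripts. Per kb of its annotated span, introns included, the host set a scale for the intron: the median member stood at 44.9% of its host's level in dbr1Δ and at 15.7% in wild type. Per the study's methods, gene levels were summed from exons, and the spt20 host had a lower level than its own intron. A span that includes introns therefore sets the host's level per kb low. Shares of that level, and counts of introns above it, run high in both strains. Above the level of their host were 273 members in dbr1Δ and 76 in wild type. Among the 267 members of 75 bases or more, this was 138 in dbr1Δ and 14 in wild type. Scaling from transcripts alone moved every log2 fold change up by 0.17 and that of the median transcript to -0.01, against -0.18 with the scaling used here, and 337 members were then increased, the 304 among them.

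Introns of the same transcript often differed. In 130 hosts 2 or more internal introns were tested, and their log2 fold changes spanned a median of 1.77. In 78 of these hosts an increased intron stood beside an uncalled one, and in 25 all the tested internal introns were increased. In 73 hosts the longest and the shortest tested member differed by at least 25 bases, and the longest had the higher log2 fold change in 64 of them, by a median of 2.43.

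The gene clr6, which encodes a class I histone deacetylase, held 8 members among its 13 introns. Its 90-base intron 6 had 567 and 388 counts in dbr1Δ against 98 and 118 in wild type (log2 fold change 2.55, standard error 0.15, adjusted p = 2.60e-06, edgeR). The other 7 members of clr6 measured 43 to 55 bases and none was called, although in 4 of them both dbr1Δ levels lay above both wild-type levels. The nearest to the transcript's start, intron 2 with 45 bases, had 26 and 17 counts in dbr1Δ against 12 and 21 in wild type (log2 fold change 0.80, standard error 0.34, adjusted p = 0.0710, edgeR), and its levels of 1.03 and 0.862 CPM in dbr1Δ lay above 0.485 and 0.593 CPM in wild type. The host itself changed by -0.23 (adjusted p = 0.0188, edgeR).

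In trk2, which encodes a potassium transporter of the plasma membrane, 8 of 12 introns were members. The 96-base intron 10 was the longest of them and had 33 and 30 counts in dbr1Δ against 9 and 8 in wild type (log2 fold change 2.29, standard error 0.37, adjusted p = 0.000984, edgeR). Of the other members of trk2, 6 were tested, measured 43 to 56 bases and were not called. In all 7 other members of trk2 the levels of the strains overlapped, as in intron 7 with 1.31 and 1.62 CPM in dbr1Δ against 2.02 and 1.58 CPM in wild type. The gene gem1, for a GTPase at contacts of mitochondria and endoplasmic reticulum, had the most members, 10 of 12 introns, all of 44 to 62 bases. Only 2 of these were tested and neither was called. Its 62-base intron 2 had 46 and 36 counts in dbr1Δ against 29 and 39 in wild type (log2 fold change 0.69, standard error 0.24, adjusted p = 0.0387, edgeR).

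**Figure D3:**
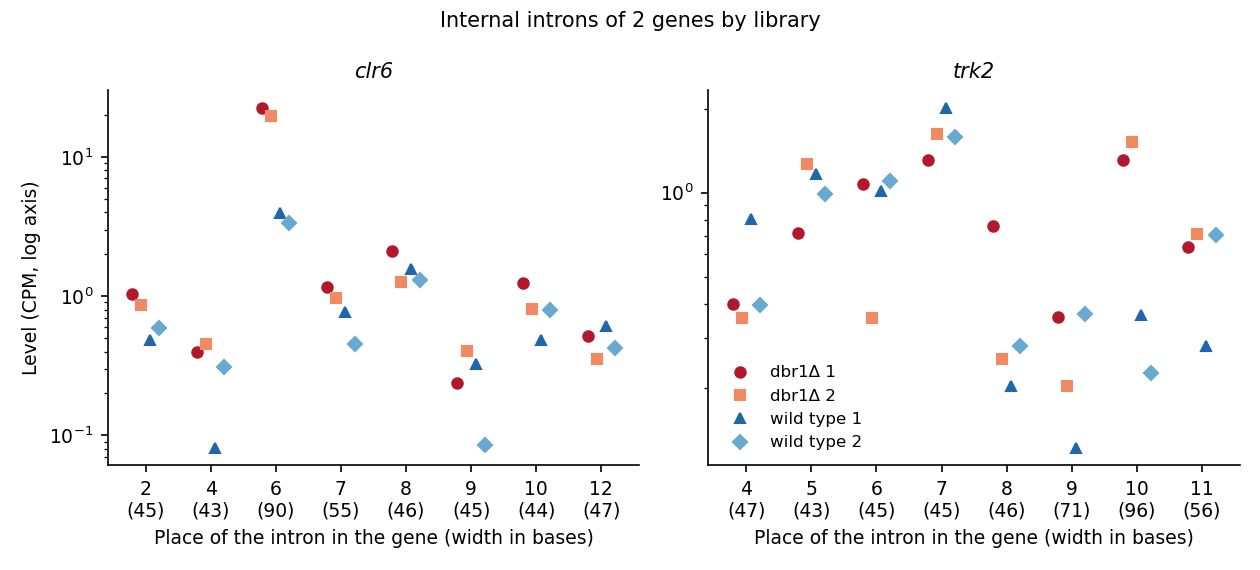
Level of each internal intron of clr6 (left panel) and trk2 (right panel) by library, in CPM on a log axis, ordered by place in the gene with the width in bases in brackets. The 90-base intron 6 of clr6 and the 96-base intron 10 of trk2 have both dbr1Δ points (red shades) well above both wild-type points (blue shades), while the other 7 introns of trk2 have overlapping points and 4 of the other 7 of clr6 have dbr1Δ points a little above the wild-type points.

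Rank in the host was looked at next. At rank 2, 177 of 353 tested members were increased (50.1%), at rank 3 83 of 144 (57.6%), at rank 4 30 of 69 (43.5%) and at rank 5 or later 14 of 61 (23.0%). The late introns were also the shortest, with a median of 48 bases at rank 5 or later against 58 bases at rank 2. Among tested members of 75 bases or more the increased share was 81.8% at rank 2, 84.4% at rank 3, 82.1% at rank 4 and 66.7% at rank 5 or later, where 9 were tested. Among those of 43 to 74 bases it was 31.2%, 36.2%, 17.1% and 15.4%, in the same order.

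Beside introns at other positions in a gene, internal introns of like width had like shares of increases. Of first introns of the same width range in genes with several introns, 159 of 322 tested were increased (median 1.07), of last introns 136 of 297 (median 0.88), and of sole introns 314 of 564 (median 1.36). At 75 bases or more the increased shares were 82.0% for internal, 81.5% for first, 83.3% for last and 81.5% for sole introns. At 43 to 74 bases they were 28.7%, 29.3%, 24.3% and 26.7%. Within the same host, the mean of the internal introns lay above the first intron in 122 of 218 hosts and above the last in 104 of 200. The median difference over all these hosts was 0.27 for internal minus first and 0.16 for internal minus last introns. None of these differences between positions was tested.

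Branch site letters gave a further division. Of tested members with CTAAC, 144 of 260 were increased (55.4%), with CTAAT 70 of 140, with TTAAC 45 of 104 (43.3%), with CTGAC 14 of 33 and with TTGAC 9 of 14. Of members with none of the 5, 22 of 76 were increased (28.9%) and 4 were decreased. Within 43 to 74 bases the increased shares were 26.9% for CTAAC and 23.0% for members with none of the 5, and from 75 bases on they were 85.7% and 53.3%, the last over 15 introns. By first 6 bases, 71 of 117 tested members with GTATGT were increased (60.7%) and 78 of 138 with GTAAGT (56.5%). In the other 4 of the 6 commonest openings the share was 54.3% with GTACGT, 46.9% with GTATGC, 44.4% with GTATGA and 34.5% with GTAAGA. Under 75 bases it was 34.9% with GTATGT and 24.2% with GTAAGT, and from 75 bases on 90.7% and 86.1%.

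Host lists show where the increased introns lay by function. Each list held tested members that were called increased and others that were not called, and none was called decreased. Among proteasome and ubiquitin conjugation genes 14 of 20 tested members were increased, with a median of 2.15 on the log2 scale, and among cell cycle and cytoskeleton genes 11 of 17, with a median of 1.72. For small GTPases and vesicle traffic it was 15 of 34 (median 0.98), for the respiratory chain and ATP synthase 6 of 11 (median 1.30), and for spliceosome and splicing factors 7 of 26 (median 0.47). Over all 627 members it was 304, with a median of 1.04. The median width was 66 bases in the proteasome and ubiquitin list, 67 in the cell cycle list and 57 in the splicing list. It was 60.5 in the small GTPase list, 52 in the respiratory list, 49.5 in the tubulin list and 63 in the ribosomal list. The respiratory list thus had shorter introns than the splicing list and a larger increased share. Tubulin and tubulin-folding genes had 2 of 5 tested members increased. In the list of ribosomal proteins 2 members were tested, the uncalled rps13 intron and an increased intron of rpp40, which encodes a subunit of RNase P and was caught by its symbol alone.

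In the proteasome list, the 138-base intron of pup2, a subunit of the proteasome core, had 871 and 794 counts in dbr1Δ against 26 and 54 in wild type (log2 fold change 4.82, standard error 0.18, adjusted p = 1.15e-07, edgeR). The intron of ubc12, the conjugating enzyme for the ubiquitin-like NEDD8, had 37 and 21 counts in dbr1Δ against 2 and 1 in wild type, a ratio of 25.9 with a 95% counting interval of 8.45 to 129. Neither overlapped between the strains. In the cell cycle list, the 95-base intron of arp3, an actin-related subunit of the complex that nucleates branched actin, had 412 and 447 counts in dbr1Δ against 8 and 18 in wild type (log2 fold change 5.49, standard error 0.27, adjusted p = 8.20e-07, edgeR). It lies under SPAC630.04c on the opposite strand.

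In the splicing list, the 190-base intron 6 of srp2, an SR-type RNA-binding protein, had 2426 and 2308 counts in dbr1Δ against 146 and 263 in wild type (log2 fold change 3.98, standard error 0.14, adjusted p = 7.43e-08, edgeR). It had no boundary or junction read in any library. Over all members, 63 lacked junction reads in every library and 151 lacked boundary reads. In the respiratory list, the 126-base intron of qcr6, a subunit of the cytochrome bc complex, had 299 and 244 counts in dbr1Δ against 37 and 39 in wild type (log2 fold change 3.25, standard error 0.19, adjusted p = 2.40e-06, edgeR). The host of qcr6 changed by -0.59 (adjusted p = 0.000188, edgeR), in the other direction.

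The count of an intron mixes kinds of reads, which were then taken apart. Reads across the 5′ boundary made up 5.83% and 5.23% of the members' counts in dbr1Δ and 7.67% and 7.49% in wild type. Other intron reads summed to 3726.1 and 3876.0 CPM in dbr1Δ against 1167.9 and 1243.5 CPM in wild type, a ratio of 3.15. Boundary reads summed to 230.5 and 214.0 CPM in dbr1Δ against 97.1 and 100.7 CPM in wild type, a ratio of 2.25. Without the spt20 intron the ratio of other intron reads was 4.39, and without the spt20 and rps13 introns it was 5.99, where that of boundary reads was 2.33. Reads across the exon-exon junction, which lack the intron, went the other way, with 2075.9 and 1949.0 CPM in dbr1Δ against 2723.4 and 2736.5 CPM in wild type, a ratio of 0.737. In none of the 3 kinds did the strains overlap. Of introns tested per kind, 275 of 530 members were increased and 8 decreased in other intron reads (54.7% and 1.84% of all introns), and 60 of 110 were increased and 1 decreased in boundary reads (47.4% and 1.98% of all introns). In junction reads 96 of 725 were decreased and 7 increased (12.9% and 1.89% of all introns), and with scaling from transcripts alone 68 were decreased and 21 increased. These counts moved with single libraries: without dbr1Δ library 1 or 2 the increased counts were 151 and 147 in other intron reads and 22 and 12 in boundary reads, and without wild-type library 1 they were 34 in boundary reads and, for junction reads, 62 decreased and 3 increased.

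**Figure D4:**
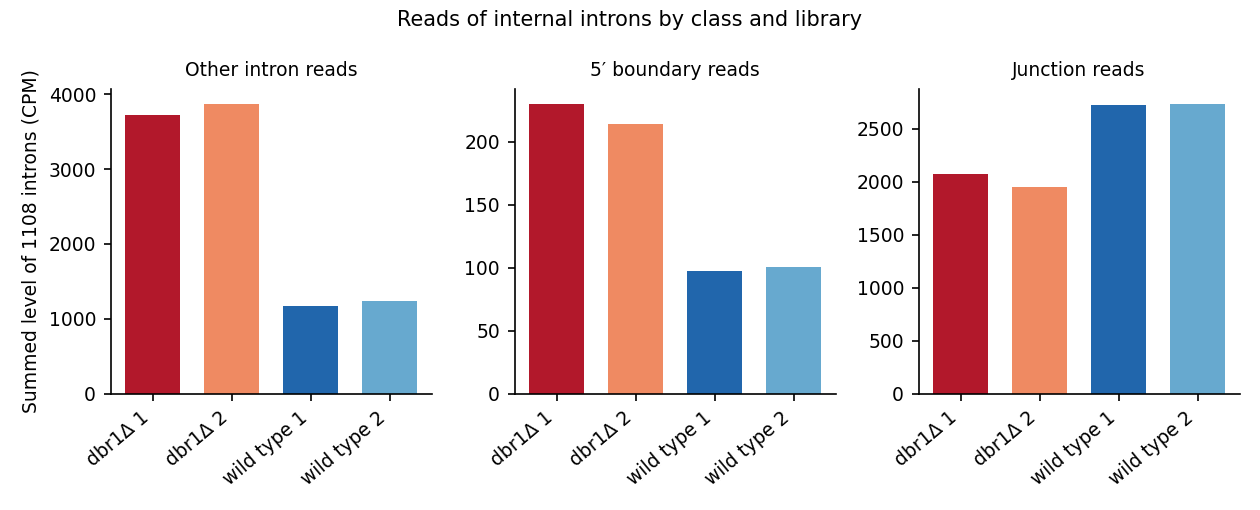
Summed reads of the 1108 internal introns in CPM, by kind of read (panels) and library (bars, each starting at 0, with dbr1Δ in red shades and wild type in blue shades). Other intron reads and 5′ boundary reads are higher in both dbr1Δ libraries, and junction reads are lower in both.

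Splicing efficiency (SE) puts boundary and junction reads against each other as the log2 of junction reads plus 1 over boundary reads plus 1. Over all members there were 111 and 110 boundary reads per 1000 junction reads in dbr1Δ, against 35.6 and 36.8 in wild type. SE was tested in the 768 members that had at least 10 such reads in at least 2 libraries. The test was that of Cochran, Mantel and Haenszel, stratified by replicate number, and its p-values were adjusted over all introns tested. The median SE of these members was 3.0 and 2.92 in dbr1Δ against 4.09 and 4.19 in wild type, and the median difference was -1.24. SE was lower in 168 members (21.9%) and higher in 1, against 19.9% and 0.131% of all introns tested, and without wild-type library 2 the lower count was 80. In 479 members both dbr1Δ values lay below both wild-type values (61.5% of all introns in the test did so). That test counts reads and leaves out the spread between cultures. When edgeR was used to test whether the strain effect differed between boundary and junction reads, which takes in that spread, SE was lower in 105 members (12.4% of all introns) and higher in 0, also in 0 at an unadjusted p under 0.05, and 104 of the 105 were also called by the first test.

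**Figure D5:**
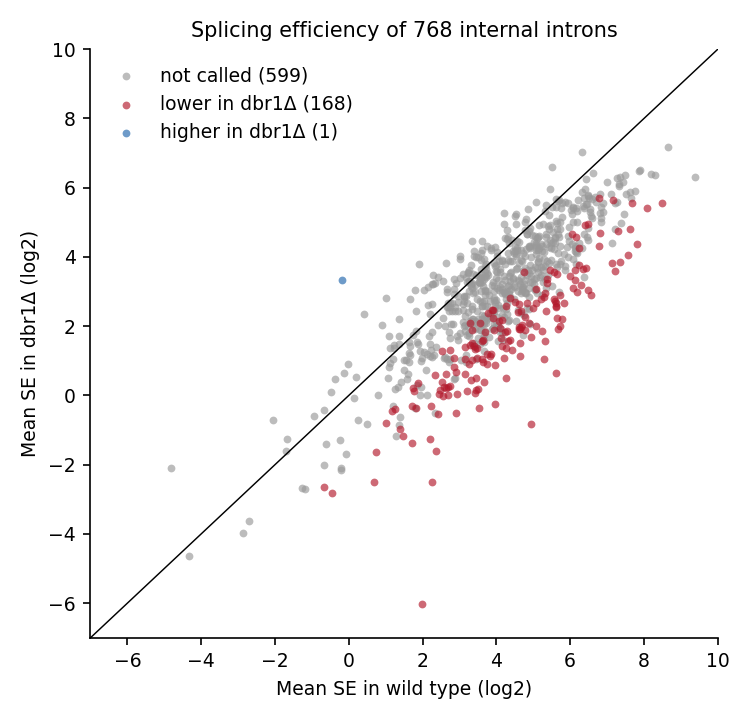
Mean SE of 768 internal introns in dbr1Δ (vertical axis) against wild type (horizontal axis), both on the log2 scale, with the line of equality. Red points are the 168 introns with lower SE in dbr1Δ and the blue point is the intron of nit1 with higher SE. Most points, called or not, lie below the line.

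The largest fall of SE was in the 52-base intron 3 of alp41, whose product is a small GTPase of beta-tubulin folding. It had 61 and 68 boundary reads in dbr1Δ against 1 and 8 in wild type, and 0 junction reads in both dbr1Δ libraries against 18 and 14 in wild type. SE was thus -5.95 and -6.11 in dbr1Δ against 3.25 and 0.74 in wild type, a difference of -8.02 (adjusted p = 2.25e-25, Cochran-Mantel-Haenszel test, and 4.76e-13, edgeR interaction). Nearly all of its 65 and 71 counts in dbr1Δ were boundary reads.

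In intron 6 of rmt1, an arginine methyltransferase, SE was -1.07 and -0.58 in dbr1Δ against 5.58 and 4.27 in wild type, with 43 and 20 boundary reads in dbr1Δ against 0 and 2 in wild type (adjusted p = 1.30e-18, Cochran-Mantel-Haenszel test, and 8.86e-11, edgeR interaction). Its host transcript changed by -0.44. In intron 3 of erh1, the fission yeast enhancer of rudimentary protein, SE was -2.75 and -2.24 in dbr1Δ against 1.70 and 2.81 in wild type, with 46 and 32 boundary reads in dbr1Δ against 3 and 1 in wild type. In both introns boundary reads made up over 40% of the dbr1Δ counts, far above the 5.83% and 5.23% over all members. The intron of cab4 differed in kind: its junction reads were 9 and 5 in dbr1Δ against 70 and 68 in wild type, and its host fell by 1.78 on the log2 scale. The intron of SPAC23C4.09c, annotated as a chaperonin-associated protein, completed the 5 largest falls with SE of 1.13 and 1.0 in dbr1Δ against 6.38 and 4.20 in wild type.

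The abundant rps13 intron, not called in level, was among those with lower SE. It had 655 and 303 boundary reads in dbr1Δ against 308 and 442 in wild type, and 2922 and 1857 junction reads against 4047 and 6238. SE was 2.16 and 2.61 in dbr1Δ against 3.71 and 3.82 in wild type (adjusted p = 1.47e-74, Cochran-Mantel-Haenszel test, and 5.82e-05, edgeR interaction). The single higher SE was in the intron of nit1, a nitrilase-family gene, with 3.09 and 3.58 in dbr1Δ against -1.58 and 1.22 in wild type (adjusted p = 0.0312, Cochran-Mantel-Haenszel test, and 0.206, edgeR interaction). It rested on 33 junction reads in all and was no longer called when either dbr1Δ library or wild-type library 1 was left out.

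The calls of level and SE overlapped but did not single out the same introns throughout. Of the 255 increased members in the SE test, 96 had a lower SE (37.6%), above the share of 21.9% over all 768 members in that test. These 96 made up 57.1% of the 168 with lower SE. The cka1 intron, among the 10 largest increases, had an SE of 6.51 and 4.72 in dbr1Δ against 5.62 and 5.73 in wild type, with overlapping values and at most 2 boundary reads in any library. Width, which went with level, did not go with SE: over the 768 introns the Pearson's r of width and SE difference was -0.0007, and SE was lower in 20.6% of tested members of 43 to 48 bases, in 21.6% of 49 to 74 bases, in 25.3% of 75 to 99 bases, in 20.5% of 100 to under 150 bases and in 27.0% of 150 bases or more. Of first, last and sole introns in the test, 17.6%, 16.0% and 22.1% had a lower SE, and the differences from internal introns were not tested.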

How the data were processed

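Total RNA depleted of rRNA from 2 dbr1Δ and 2 wild-type cultures was sequenced. Per the study's methods, reads of 49 bases were placed by the authors with Bowtie on the Ensembl build EF1 genome and on exon-exon junctions, and they removed reads that matched several places. They deposited a table with read counts for each transcript and intron, counts of reads over each 5′ exon-intron boundary, and SE, which the authors gave as a log2 value per intron. Reads under an antisense or overlapping gene may be shared, since counting by strand is not given in the sources used here. No per-sample column was left unused (0).

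Junction reads were recovered from SE and boundary counts; 100% were whole within 0.01. All loci were fitted together in edgeR 4.0.16 (R 4.3.3) by quasi-likelihood with TMM scaling. Standard errors were derived from this test, as the absolute log2 fold change over the square root of its F statistic. A locus needed 10 counts in 2 or more libraries, which left 9518 loci for the Benjamini-Hochberg adjustment. SE was tested on reads in 3822 introns in R and, beside it, by an edgeR fit. SciPy 1.17.1 was used for rank correlations and counting intervals. The fits were tested on simulated data. With 2 cultures per strain, edgeR p-values measure the spread between these cultures only. Those of the Cochran-Mantel-Haenszel test rest on read counts and leave that spread out. Intervals on counts (95%) cover counting error alone. Widths were taken from the table. Its coordinates were read on the RefSeq assembly ASM294v3, on which 1106 of 1108 introns opened and closed with GT and AG.

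The members, host lists and tests were chosen with earlier results of these data known. Named were the 10 largest increases and 5 largest decreases, the 5 largest falls and rises of SE, the 5 most abundant uncalled members, the members of alp41 and of the 3 hosts with the most members, and the top 2 of each host list, of which 1 is not reported here. For these changes the strains also had to be free of overlap. Alternatives were DESeq2 1.42.0, other scalings and filters, a replicate block, boundary reads left out, other SE settings and each library left out in turn.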

Additional observations from a re-analysis of the deposited data

How the results depend on the processing

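No direction turned under any alternative. Increased members numbered 261 with DESeq2 (all 261 among the 304), 121 with a mean of at least 50 counts, and 145 with at least 10 counts in both wild-type libraries, an alternative chosen after seeing the data, as was leaving out the spt20 and rps13 introns. With a library left out they numbered 205 to 290. Decreased members numbered 3 with DESeq2 and among members of at least 49 bases, 0 with a mean of at least 50 counts in edgeR (19 of the 627 had an unadjusted p under 0.05), 13 with no fold change cutoff, and 1 to 5 with a library left out. The median log2 fold change was 1.27 with TMM from nuclear protein-coding transcripts, 1.21 with TMM from transcripts, 1.17 without boundary reads, 3.28 with a mean of at least 50 counts, 1.09 with no factors, 0.92 with no filter, 1.39 from 49 bases on and 0.64 with the filter on wild type, and 0.89 to 1.39 with a library left out.

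Lower SE was called in 79 members at 50 reads in every library, in 105 by edgeR and in 80 to 145 with a library left out. Higher SE was called in 0 members at 50 reads, by edgeR (where at an unadjusted p under 0.05 it was higher in 0 and lower in 212), and with reads pooled by strain (176 lower), and in 0 to 1 with a library left out. The median SE difference was -1.43 with 0.5 added to both read classes, -1.41 at 50 reads, -1.14 with no filter, -1.04 with reads thinned to the smallest library, and -1.33 to -1.16 with a library left out. By kind of read, leaving out a library gave 147 to 268 increased and 4 to 7 decreased in other intron reads, 12 to 56 increased and 0 to 1 decreased in boundary reads, and 3 to 11 increased and 62 to 99 decreased in junction reads. Increased junction reads numbered 21 with TMM from transcripts and 12 with no factors.

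With the replicate block, 308 members were increased and 6 decreased, and the median was 1.05. The labels give no more than a shared number for same-numbered libraries. Their deviations had a correlation of -0.053 over all loci and 0.020 over tested members, which cannot show whether they shared a batch. The SE test is stratified by replicate number. Of the named members, the decreases of rsa4, rad16 and intron 3 of SPBC1348.12 were lost with DESeq2 and without dbr1Δ replicate 1, those of rsa4 and rad16 also without dbr1Δ replicate 2, and that of rad16 also with transcript scalings and without boundary reads. Without either wild-type replicate all 5 named decreases fell under the filter of 10 counts in 2 libraries. Lost too were the increases of rmt1 and SPAC23C4.09c without boundary reads. The cause of the other losses was not tested. Depth limits the results: 481 of the 1108 members had too few counts for the test.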
